A study of Mus musculus with 11 samples.

Results

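The Kruppel-like factors (KLFs) described here were 9 genes, Klf2, Klf4, Klf6, Klf7, Klf9, Klf10, Klf13, Klf15 and Klf16, of 30681 genes in a table of RNA-sequencing counts from mouse hippocampus. The 9 were chosen by gene symbol, at a time when the genotype differences of these same libraries were already known. Their genotype fold changes are therefore given as a description, without a test. All 9 were found in the table, once each, and all 9 passed the filter on low counts. The study set hippocampi labelled as a conditional knockout (cKO) of Dclk3, a kinase of the doublecortin family, against hippocampi of wild-type (WT) mice, all at an age of 6 months. There were 6 libraries labelled cKO and 5 WT libraries, each made from polyadenylated RNA of 1 hippocampus. The labels name neither the recombinase and the cells it acts in, nor the deleted part of the gene, nor the strain. Nothing in the labels says that the libraries came from different mice, so the spread between them may be in part technical.

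KLFs are transcription factors that bind GC-rich and CACCC-containing promoter elements through zinc fingers at the end of the protein, next to the related SP factors. Some, such as Klf2 and Klf4, are switched on quickly by stimuli and are best known from blood vessel endothelium, while Klf4, Klf6, Klf7 and Klf9 are known for setting how far neurons extend axons. Klf9 and Klf15 are induced by glucocorticoids, and Klf9 is known in the hippocampus for a role in the maturation of dentate granule neurons.

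Library totals ran from 24001828 to 35674490 counts. Levels are in CPM, counts scaled to a common library size by TMM. Dclk3 had a WT level of 22.4 ± 3.31 CPM (SD, n = 5) and a level of 20.1 ± 3.44 CPM where labelled cKO (SD, n = 6), a difference that did not pass the test (log2 fold change -0.15 ± 0.12, SE; edgeR, adjusted p = 0.727), so groups are called by their labels throughout. By Xist and 4 Y-linked genes, WT replicates 1, 3 and 4 were female, and the other 8 libraries, the 6 labelled cKO among them, were male. The 10 markers of dentate and CA neurons were all detected, with summed levels of 894 to 1026 CPM in WT and 903 to 1037 CPM labelled cKO. RNA came from whole tissue, so fewer cells of a type and less RNA per cell cannot be told apart.

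The stretches before the start sites of 4 of the genes are shown because the results turn on these genes: Klf2 and Klf4 had the lowest fold changes, and Klf9 and Klf13 varied together. They are the 250 bases upstream of the start in the RefSeq promoter table (GRCm38.p6, equal to mm10), which had entries for 7 of the 9 genes. Klf2 is chr8:72318812-72319061 on the plus strand, Klf4 is chr4:55532476-55532725 on the minus strand, Klf9 is chr19:23140976-23141225 on the plus strand and Klf13 is chr7:63938916-63939165 on the minus strand. The Klf2 stretch runs past the gene start in GENCODE M21, 72319033. Of the stretches not shown, that of Klf6 ends at 5861488, past its gene start at 5861482. That of Klf7, chr1:64121390-64121639 on the minus strand, lies inside the gene, which starts at 64122282, so its matches below do too. Each of the 4 shown is written 5′ to 3′ on the gene's own strand. Capitals mark a CRE core (TGACG on either strand, part of the element bound by CREB) or a MEF2 box.

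Klf2: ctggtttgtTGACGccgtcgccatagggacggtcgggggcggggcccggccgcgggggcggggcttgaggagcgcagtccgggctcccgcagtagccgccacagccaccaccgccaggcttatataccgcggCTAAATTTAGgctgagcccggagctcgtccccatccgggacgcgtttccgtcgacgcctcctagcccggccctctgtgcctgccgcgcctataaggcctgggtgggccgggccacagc

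Klf4: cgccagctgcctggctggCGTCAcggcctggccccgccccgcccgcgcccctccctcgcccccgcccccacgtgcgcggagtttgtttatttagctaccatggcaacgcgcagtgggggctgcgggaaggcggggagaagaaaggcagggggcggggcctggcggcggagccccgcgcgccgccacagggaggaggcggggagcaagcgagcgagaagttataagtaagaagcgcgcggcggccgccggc

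Klf9: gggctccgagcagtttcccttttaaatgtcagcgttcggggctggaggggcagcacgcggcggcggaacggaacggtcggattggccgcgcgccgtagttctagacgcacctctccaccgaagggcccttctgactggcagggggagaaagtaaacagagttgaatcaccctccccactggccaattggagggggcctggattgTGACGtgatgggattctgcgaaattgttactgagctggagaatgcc

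Klf13: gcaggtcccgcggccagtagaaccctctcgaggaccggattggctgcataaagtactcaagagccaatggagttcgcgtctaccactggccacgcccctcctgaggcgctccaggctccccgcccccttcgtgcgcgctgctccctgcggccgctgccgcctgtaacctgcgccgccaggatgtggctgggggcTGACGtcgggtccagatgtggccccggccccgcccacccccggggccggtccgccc

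The capitals in the middle of the Klf2 stretch are its MEF2 box, which starts 118 bases before the start site and is the only match to that motif among the 7 promoters with an entry. Of 32851 promoters in the table, 0.508% held this box in the same window. A CRE core was in 5 of the 7, those of Klf2, Klf4, Klf9, Klf13 and Klf15, against 17.8% of all promoters. It lay 241 bases before the start in Klf2, 232 in Klf4, 46 in Klf9, 56 in Klf13, and 78 and 6 in Klf15. None of the 7 held the full CRE, the CArG box of serum response factor or the full glucocorticoid element, which were in 1.55%, 1.47% and 0.00913% of all promoters. The GC box GGGCGG, bound by SP factors, was in 6 of the 7 (Klf2, Klf4, Klf6, Klf7, Klf13 and Klf15) and in 32.7% of all promoters, and the CACCC box in 5 (Klf2, Klf7, Klf9, Klf13 and Klf15) and in 52.0% of all. Both strands were searched, and the core is part of the full CRE. GC content was above the median of 52.4% in all 7. It was 71.2% in the Klf2 stretch, 74.0% in Klf4, 64.8% in Klf6, 59.2% in Klf7, 59.6% in Klf9, 71.6% in Klf13 and 72.0% in Klf15. The shares of all promoters given here are over promoters of any GC content. These matches describe letters only, and whether a factor was bound there was not tested.

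Per kilobase of exon, which allows genes to be compared, Klf13 led in WT with 29.9 ± 1.20 CPM per kilobase, followed by Klf9 with 26.5 ± 1.82 and Klf16 with 22.0 ± 1.32 (SD, n = 5). Klf15 came next with 9.49 ± 0.487 CPM per kilobase, then Klf6 with 7.55 ± 0.471. Klf2 with 5.32 ± 1.42, Klf10 with 5.27 ± 0.838 and Klf7 with 5.11 ± 0.325 CPM per kilobase lay together, and Klf4 was lowest with 1.48 ± 0.176. In WT the ranges of Klf13 and Klf9 overlapped, as did those of Klf2, Klf10 and Klf7, and every other pair of neighbours was apart. In the libraries labelled cKO Klf2 moved from sixth to eighth place, at 3.22 ± 0.513 CPM per kilobase (SD, n = 6), and the other genes kept their order. Klf7 shares 3200 exon bases with 2 genes on the other strand, Gm26649 and Gm13748, so its count is uncertain unless counting used the strand, which is not stated.

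**Figure D1:**
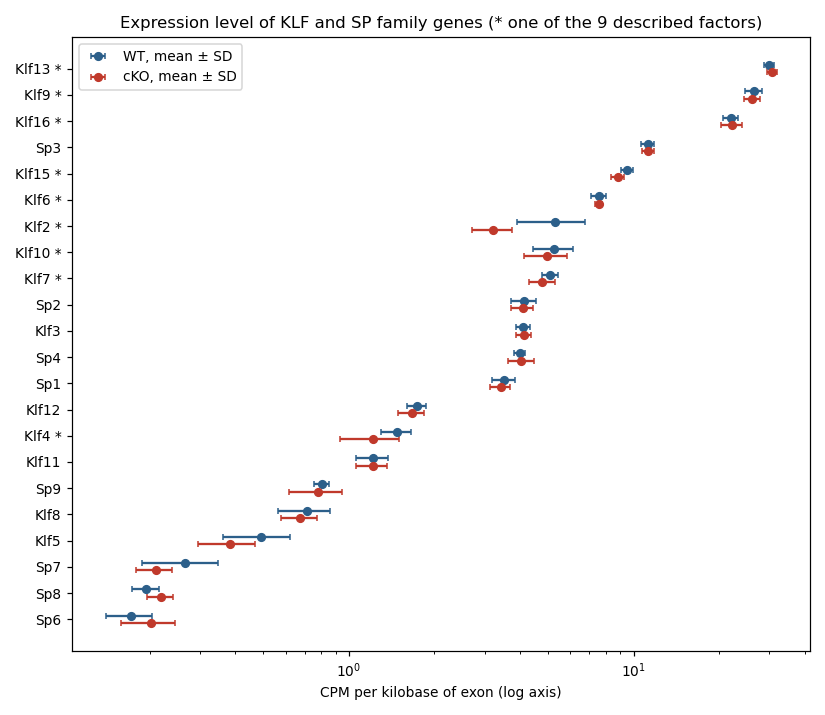
Level of each tested KLF and SP gene in CPM per kilobase of exon on a log axis, as the mean with its SD in WT (blue, 5 libraries) and labelled cKO (red, 6 libraries); asterisks mark the 9 described genes. Klf13, Klf9 and Klf16 are at the top, and Klf2 is the gene whose 2 points are farthest apart among the 9.

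Klf2, the flow-responsive factor of endothelium that also keeps T cells and monocytes quiescent, had the largest difference of the 9. The gene, ENSMUSG00000055148, lies at chr8:72319033-72321656 on the plus strand and no other gene shares its exons (GENCODE M21, mm10). It read 4.92, 6.05, 5.84, 6.52, 4.95 and 7.39 CPM in replicates 1 to 6 labelled cKO. In WT replicates 1 to 5 it read 11.4, 10.1, 11.8, 10.6 and 5.29 CPM. The 6 libraries labelled cKO all lay below 4 of the WT libraries, with 7.39 CPM the highest labelled cKO and 10.1 CPM the lowest of those 4. WT replicate 5, a male library, lay among the libraries labelled cKO, above 2 of them and below the other 4, so the groups overlapped. The mean was 9.83 ± 2.62 CPM in WT (SD, n = 5) and 5.94 ± 0.948 CPM labelled cKO (SD, n = 6), which is 60.5% of the WT level. On the log2 scale the difference was -0.72 ± 0.18 (SE; 95% interval -1.10 to -0.35). Among the 16587 genes tested, this fold change ranked 52 from the most negative. These values rest on 118 to 401 reads per library, for which counting error alone is 9.21% to 4.99%. The coefficient of variation was larger, at 16.0% labelled cKO and 26.7% in WT. The WT coefficient includes the low WT replicate 5, while the other 4 WT libraries lay between 10.1 and 11.8 CPM.

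The Klf2 difference was smaller among males. The female WT libraries had 10.6 to 11.8 CPM, and the 2 male WT libraries 10.1 and 5.29 CPM. In the 8 male libraries the log2 fold change was -0.36 ± 0.22, and with sex as a term it was -0.37 ± 0.20 (SE). Without WT replicate 5 it was -0.88. Since WT replicate 2, also male, was near the females, an effect of sex and 1 low library cannot be told apart.

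Klf4, a reprogramming factor of stem cells that also acts in endothelium and limits axon growth, was the least abundant member. It read 4.19, 3.09, 3.53, 3.46, 2.81 and 5.21 CPM in replicates 1 to 6 labelled cKO, and 4.80, 5.10, 4.46, 4.50 and 3.67 CPM in WT replicates 1 to 5. Of the libraries labelled cKO, 4 were lower than all WT libraries, while replicate 6 was the highest of all 11 and replicate 1 lay within the WT range. Again WT replicate 5 was the lowest WT library. Its log2 fold change was -0.28 ± 0.14 (SE; 95% interval -0.58 to 0.03), on 67 to 154 reads per library.

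**Figure D2:**
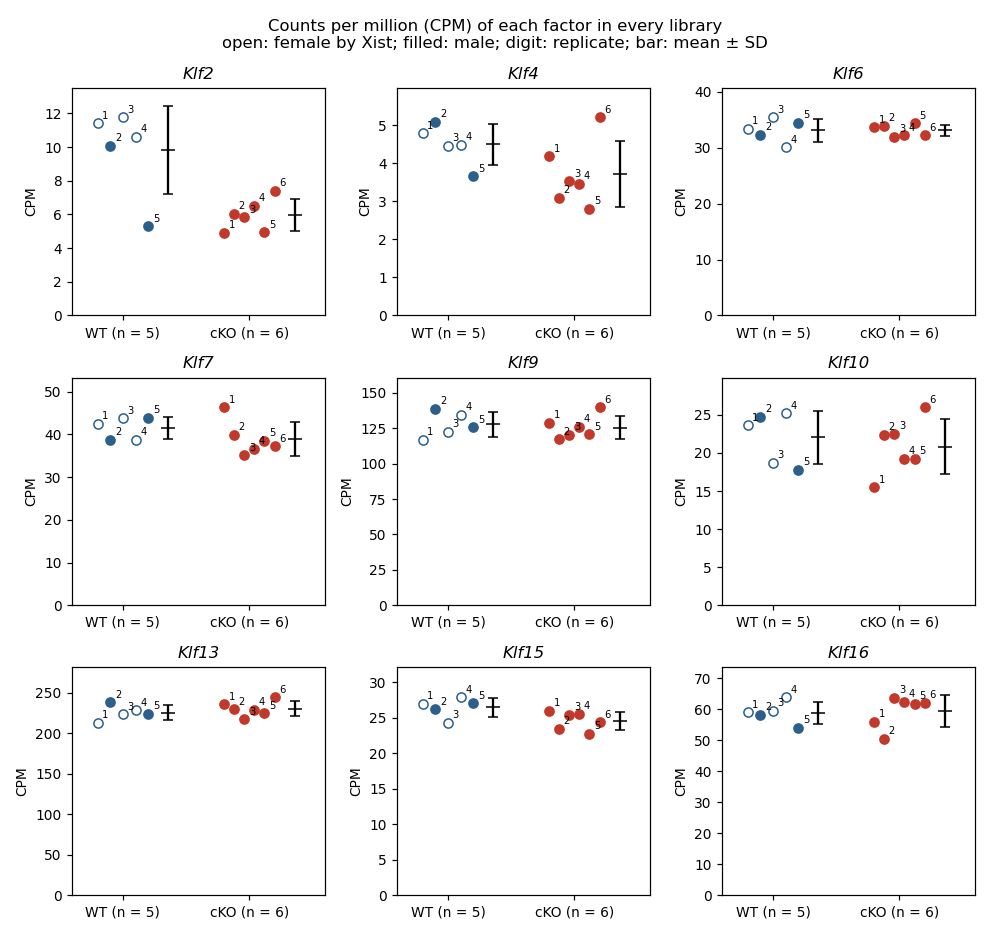
CPM of the 9 genes in every library (linear axes from 0), with WT on the left and labelled cKO on the right of each panel; digits are replicate numbers, open circles female and filled circles male libraries, and bars the mean with SD. Klf2 shows 4 WT libraries between 10.1 and 11.8 CPM, with WT replicate 5 at 5.29 CPM beside the 6 libraries labelled cKO.

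Klf6 and Klf7 are known for promoting the regrowth of axons. Klf6 ranged from 32.0 to 34.4 CPM labelled cKO (median 33.0) and from 30.1 to 35.4 CPM in WT (median 33.4), and every library labelled cKO lay within the WT range. Its log2 fold change was -0.00 ± 0.05 (SE; 95% interval -0.11 to 0.10). Klf7 ranged from 35.1 to 46.3 CPM labelled cKO (median 37.8) and from 38.7 to 43.9 CPM in WT (median 42.5). Replicate 1 labelled cKO was the highest of all libraries for Klf7, and 4 of the others labelled cKO were lower than all WT libraries. Its log2 fold change was -0.09 ± 0.07 (SE; 95% interval -0.23 to 0.05), and without replicate 1 labelled cKO it was -0.15 ± 0.06.

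The hormone-responsive members and their close relative Klf13 showed small differences with narrow intervals. Klf9, induced by glucocorticoid and thyroid hormone, read 129, 117, 120.3, 126, 121 and 140 CPM in replicates 1 to 6 labelled cKO and 117, 139, 123, 134 and 126 CPM in WT replicates 1 to 5, with a log2 fold change of -0.02 ± 0.05 (SE; 95% interval -0.14 to 0.09). Klf13, the member most like Klf9 and a regulator of chemokine genes in T cells, read 236, 229.7, 217, 229, 225 and 245 CPM in replicates 1 to 6 labelled cKO and 213, 238, 223, 229 and 224 CPM in WT replicates 1 to 5, at 0.03 ± 0.04 (log2 ± SE; 95% interval -0.06 to 0.12). For both genes the groups overlapped. Klf15, which drives amino acid breakdown and glucose production, ranged from 22.8 to 26.0 CPM labelled cKO (median 24.9) and from 24.3 to 27.9 CPM in WT (median 27.0). Its log2 fold change was -0.11 ± 0.05 (SE; 95% interval -0.22 to 0.01), and 2 of those labelled cKO were lower than all WT libraries.

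Klf10, the TGF-beta-inducible early gene, also varied widely within groups. It ranged from 15.5 to 26.0 CPM labelled cKO (median 20.8) and from 17.8 to 25.2 CPM in WT (median 23.7), with coefficients of variation of 17.4% and 15.9%. Its log2 fold change was -0.08 ± 0.13 (SE; 95% interval -0.36 to 0.19). Klf16, a repressor first described at the dopamine receptor genes, ranged from 50.4 to 63.6 CPM labelled cKO (median 61.9) and from 54.0 to 63.9 CPM in WT (median 58.9), at 0.01 ± 0.06 (log2 ± SE; 95% interval -0.12 to 0.14).

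Counted over the 9 genes, 7 had a negative and 2 a positive log2 fold change, with a median of -0.08. Over all tested genes the median was 0.00, and 50% had a negative value. By edgeR's quasi-likelihood test 0 of the 9 were called at an adjusted p under 0.05, as were 0% of all genes. At an unadjusted p under 0.05, 1 of the 9 (Klf2) was lower, against 5.35% of all genes, and 0 were higher, against 3.84%. DESeq2 called 1 of the 9, Klf2, among 62 genes. No member had all libraries labelled cKO below all WT libraries, which 0.512% of all genes had, or above them, which 0.404% had. Since the genes were chosen with this contrast known, nothing is read from these counts.

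**Figure D3:**
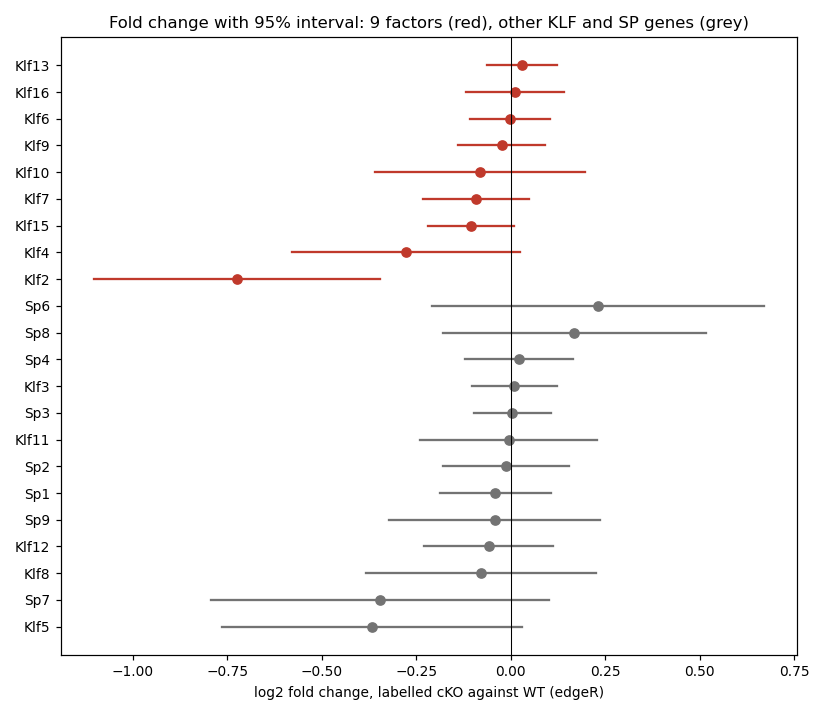
Log2 fold change of the libraries labelled cKO against WT with its 95% interval (edgeR) for the 9 genes in red and the other tested KLF and SP genes in grey. Klf2, with an interval from -1.10 to -0.35, has the most negative value of the 9, and the genes chosen with this contrast known are shown as a description.

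The rest of the family was measured as a comparison. Of the 8 other KLF genes 5 were tested, and of the 9 SP genes 8. By edgeR 0 of these 13 passed at an adjusted p under 0.05, 0 had an unadjusted p under 0.05, and DESeq2 called 0. Klf5, a factor of proliferating epithelium and smooth muscle, was at -0.37 ± 0.19, Klf12 at -0.06 ± 0.08 and Sp7, the bone factor osterix, at -0.35 ± 0.21 (log2 ± SE). Klf3 and Sp3, a pair of widely expressed members, were at 0.01 ± 0.05 and 0.00 ± 0.05. The medians were -0.06 for the other KLF genes and 0.00 for the SP genes.

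Genes around Klf2 and Klf4 in their known pathway had small differences. In the arm of the kinase ERK5 and the MEF2 factors, which induces Klf2 and Klf4, 5 of 7 genes had negative values, with a median of -0.05. Mapk7, which encodes ERK5, was at -0.16 ± 0.06, Mef2a at 0.10 ± 0.04, Map3k3 at -0.10 ± 0.05 and Map2k5 at -0.05 ± 0.05 (log2 ± SE). None of the 7 passed edgeR's test (smallest adjusted p = 0.476), with 1 lower and 1 higher at an unadjusted p under 0.05 and 0 by DESeq2. Of 5 endothelial targets of the pair, 0 passed (edgeR, smallest adjusted p = 0.525), with 1 lower at an unadjusted p under 0.05 and 0 by DESeq2. They were Thbd, the anticoagulant thrombomodulin (-0.24 ± 0.11), Vcam1, a leukocyte adhesion molecule (0.11 ± 0.07), Nos3, endothelial nitric oxide synthase (0.05 ± 0.08), Edn1, endothelin (0.04 ± 0.20), and Tek (-0.01 ± 0.09; log2 ± SE).

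Markers of endothelium, where Klf2 is best known, and of other cell types were set beside Klf2. The 12 endothelial markers, all detected, had 6 lower and 6 higher values and a median of 0.00, and 0 had an unadjusted p under 0.05 (edgeR; 0 by DESeq2). Their summed level was 276 to 314 CPM labelled cKO and 263 to 329 CPM in WT. The 10 microglial markers were all higher, with a median of 0.20 and summed levels of 689 to 1061 CPM labelled cKO and 692 to 772 CPM in WT (edgeR, 0 at an adjusted p under 0.05, 5 unadjusted; 0 by DESeq2). Of 10 markers of meningeal fibroblasts 8 were lower, with a median of -0.59 and summed levels of 104 to 195 CPM labelled cKO and 136 to 201 CPM in WT (edgeR, 0 adjusted and 5 unadjusted; 4 by DESeq2). The 10 astrocyte markers were all higher, and their sums did not overlap, with 8685 to 10783 CPM labelled cKO and 7051 to 8297 CPM in WT (edgeR, 0 adjusted and 4 unadjusted; 1 by DESeq2). Medians were -0.12 for mural cells, 0.02 for oligodendrocytes, -0.07 for choroid plexus and 0.16 for blood, and no marker of these lists passed at an adjusted p under 0.05 (edgeR; unadjusted 4 of 10, 0 of 10, 2 of 8 and 1 of 5; DESeq2 0, 0, 1 and 0). The 6 libraries labelled cKO were all male while 3 of the 5 WT libraries were female, and the part of sex in the gap between the astrocyte sums was not tested. Among all tested genes taken singly, 0.404% had every library labelled cKO above every WT library. The part of the astrocyte, mural, oligodendrocyte, choroid plexus and blood markers in the values of the 9 genes was not tested.

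The 12 immediate early genes, which neurons switch on within minutes of firing, had lower values throughout, with a median of -0.59. Their unadjusted p was under 0.05 for 12 of 12, none passed at an adjusted p under 0.05 (edgeR, smallest adjusted p = 0.0559), and DESeq2 called 7. This list was chosen with these results known. Dusp1, a MAP kinase phosphatase, was at -0.66 ± 0.10, Btg2 at -0.57 ± 0.11, Ier2 at -0.54 ± 0.11 and Fos at -0.91 ± 0.18 (log2 ± SE). Their mean centred log2 CPM was -0.22 in WT replicate 5, against 0.39 to 0.64 in the other 4 WT libraries and -0.48 to -0.10 in those labelled cKO. The library that was low in Klf2 was thus also the lowest WT library in the mean of these genes, though not in each: Npas4, a neuronal activity factor, was highest of all 11 libraries there, at 16.9 CPM. WT replicate 5 was also the lowest of all 11 in the same measure over the endothelial markers, at -0.13, and over the microglial markers, at -0.20. After the group means were removed, the correlation of Klf2 with this list did not pass (r = 0.75, exact permutation p = 0.109, adjusted 0.663; rho = 0.45, exact permutation p = 0.163, adjusted 0.813; n = 11 libraries). This r rests on WT replicate 5: without that library it was -0.05, and without the 2 libraries farthest from the median of the centred Klf2 values, WT replicate 5 and replicate 1 labelled cKO, it was -0.06. With the endothelial markers it was 0.59 (exact permutation p = 0.156, adjusted 0.663; rho = 0.65, exact permutation p = 0.0363, adjusted 0.283), and r was 0.41 without WT replicate 5 and 0.27 without the same 2 libraries. With the microglial markers Klf2 had r = 0.41 (exact permutation p = 0.0878, adjusted 0.659; rho = 0.65, exact permutation p = 0.0350, adjusted 0.283), and r was 0.25 without those 2. Without WT replicate 5 alone, r with the microglial markers was 0.48. With the corticosteroid genes described below, Klf2 had r = 0.01 in all 11 libraries. That r was 0.67 without WT replicate 5 and 0.79 without those 2. With the meningeal fibroblast markers r was -0.07, -0.14 and 0.11 in the same order. The r values with libraries left out were not tested. In all, 45 relations of a member with 1 of 5 lists were computed, chosen after the levels were seen. Of these, 0 passed at an adjusted p under 0.05, with 4 at an unadjusted p under 0.05. All 4 were with the endothelial markers. Klf10 had r = 0.73 (exact permutation p = 0.00806, adjusted 0.197) and Klf16 r = 0.60 (exact permutation p = 0.0416, adjusted 0.468). Klf6 ran opposite to these markers, with r = -0.82 (exact permutation p = 0.00875, adjusted 0.197), as did Klf7, with r = -0.62 (exact permutation p = 0.0312, adjusted 0.468). Their rho values were 0.77, 0.69, -0.75 and -0.68 (exact permutation, adjusted p = 0.283 each). Without the 2 libraries farthest in each gene, r was 0.60 for Klf10, 0.71 for Klf16, -0.65 for Klf6 and -0.77 for Klf7.

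**Figure D4:**
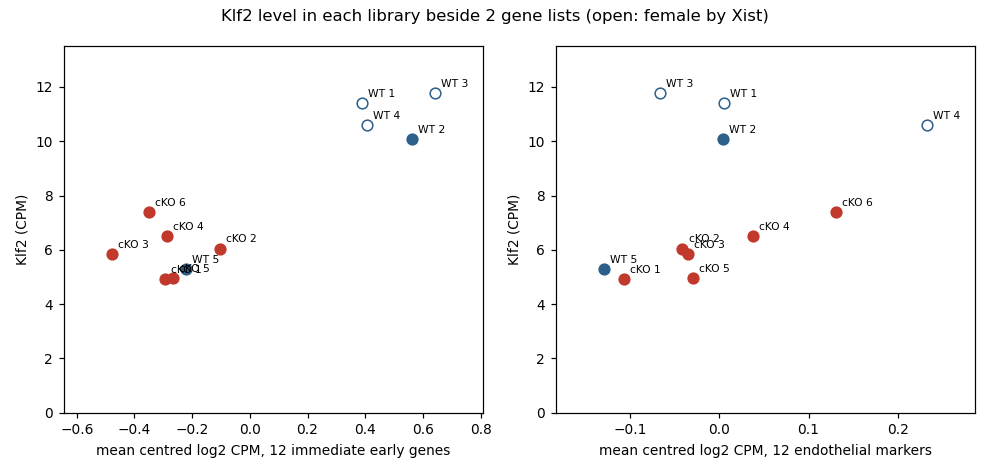
Klf2 in CPM (linear axis from 0) in each of the 11 libraries against the mean centred log2 CPM of the 12 immediate early genes (left) and the 12 endothelial markers (right); red is labelled cKO, blue WT, open circles are female. On the left WT replicate 5 sits with the libraries labelled cKO at -0.22, apart from the other 4 WT libraries at 0.39 to 0.64.

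For Klf9 and Klf15, 6 of 10 corticosteroid genes had negative values, with a median of -0.09, and 0 passed (edgeR, smallest adjusted p = 0.26, with 3 lower at an unadjusted p under 0.05). DESeq2 called 2: Per1 of the circadian clock, at -0.25 ± 0.05, and Nfkbia, which holds NF-kappa-B in the cytoplasm, at -0.29 ± 0.07 (log2 ± SE). In both genes all 6 libraries labelled cKO were lower than the WT libraries, as in 0.512% of all tested genes. Both were named for their small p, and the 6 were all male while 3 of the 5 WT libraries were female. Ddit4, an mTOR inhibitor, was at -0.23 ± 0.08 and Tsc22d3 at -0.16 ± 0.08. Nr3c1, the glucocorticoid receptor, was at 0.08 ± 0.05. Of 5 metabolic genes linked to Klf15, 2 had negative and 3 positive values, with a median of 0.02. Bcat2, an enzyme of branched-chain amino acid breakdown, was at -0.12 ± 0.07 and Prodh, proline dehydrogenase, at 0.02 ± 0.07. Slc2a4 was at 0.24 ± 0.19 and Pdk4 at 0.05 ± 0.07 (log2 ± SE). Of the 5, 0 passed and 0 had an unadjusted p under 0.05 by edgeR, and DESeq2 called 0.

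For Klf10, 7 of 8 genes of TGF-beta signalling had positive values, with a median of 0.10. The exception was Smad7, the pathway's inhibitor, at -0.20 ± 0.06 (log2 ± SE). Its 6 libraries labelled cKO were all lower than the WT libraries, as in 0.512% of all tested genes. Tgfbr1, a receptor, was at 0.14 ± 0.06, Smad3 at 0.13 ± 0.06 and Smad4 at 0.10 ± 0.05 (log2 ± SE). None of the 8 passed (edgeR, smallest adjusted p = 0.405), with 1 lower and 2 higher at an unadjusted p under 0.05 and 0 by DESeq2. For Klf6 and Klf7, 4 axon growth genes were tested and 0 passed, with 0 at an unadjusted p under 0.05 (edgeR; 0 by DESeq2). Gap43, a growth cone protein, was at 0.15 ± 0.08 and L1cam at -0.02 ± 0.08 (log2 ± SE). Of 9 corepressors that KLFs recruit 0 passed (edgeR; 0 by DESeq2), with Hdac1, a deacetylase, at -0.19 ± 0.08 the only one at an unadjusted p under 0.05, and Sin3a at -0.01 ± 0.05.

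Covariation within groups does not use the genotype contrast and could be tested. For each of the 36 pairs of members, log2 CPM values were centred on their group mean and the libraries were permuted within groups, in 86400 arrangements. Klf9 and Klf13 varied together, with r = 0.88 (exact permutation p = 0.000914, adjusted over 36 pairs 0.0329; n = 11 libraries) and rho = 0.82 (exact permutation p = 0.00641, adjusted 0.132). Replicate 6 labelled cKO was highest for both, at 140 CPM of Klf9 and 245 CPM of Klf13, and WT replicate 2 was the highest WT library for both, at 139 and 238 CPM. WT replicate 1 was the lowest WT library for both, at 117 and 213 CPM. Without replicate 6 labelled cKO and WT replicate 2, which were farthest from the median of the centred Klf9 values, r was 0.73. The call ended by rank, in the 8 male libraries (r = 0.86), when scaled by library totals only (r = 0.87), and in 9 of the 11 settings with 1 library left out. It held without replicate 2 or 3 labelled cKO (r = 0.95 and 0.92). Over all 11 such settings r ran from 0.83 to 0.95, and the smallest adjusted p of any pair from 0.0025 to 0.213 (exact permutation). Both members had higher r with genes outside the family. The 3 genes most like Klf9 had r of 0.92 to 0.95, and the 3 most like Klf13 had r of 0.91 to 0.93, each picked from 14307 genes. Whether an r of 0.88 is rare among gene pairs in general was not tested.

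No other pair passed after adjustment, and 9 of 36 had an unadjusted p under 0.05, 5 with positive and 4 with negative r. Klf6 and Klf7, the pair of axon growth factors, had r = 0.66 (exact permutation p = 0.00819, adjusted 0.147), with rho = 0.78 (exact permutation p = 0.00922, adjusted 0.132) and r = 0.69 without WT replicates 3 and 4. Klf2 and Klf4 had r = 0.55 (exact permutation p = 0.0436, adjusted 0.196), with rho = 0.50 (exact permutation p = 0.115, adjusted 0.415) and r = 0.74 without WT replicate 5 and replicate 1 labelled cKO. Its r was 0.44 without WT replicate 5 alone and 0.47 without replicate 6 labelled cKO alone. Klf7 and Klf10 ran opposite, with r = -0.76 (exact permutation p = 0.0163, adjusted 0.195), rho = -0.77 (exact permutation p = 0.0147, adjusted 0.132) and r = -0.61 without replicates 1 and 3 labelled cKO. Replicate 1 labelled cKO was the highest of all libraries for Klf7 and the lowest for Klf10.

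**Figure D5:**
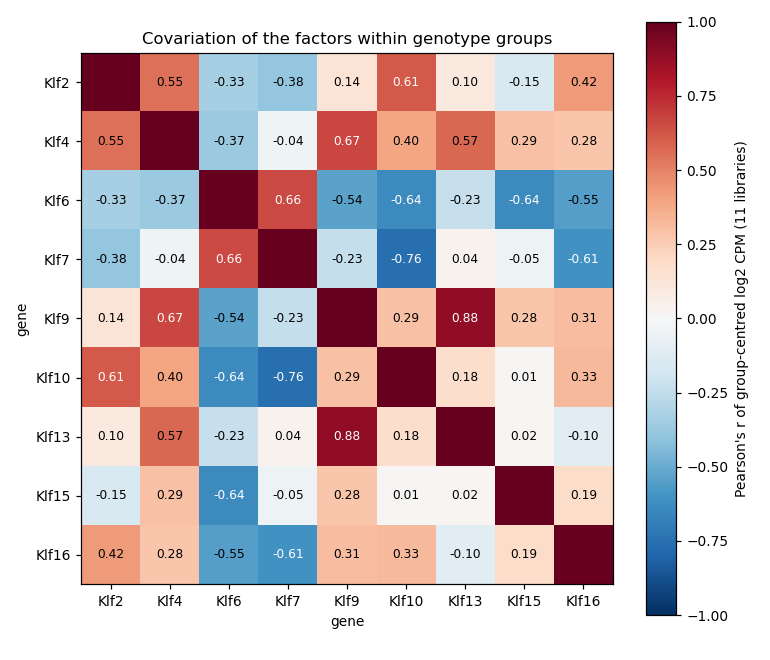
Pearson's r of group-centred log2 CPM over 11 libraries for each pair of the 9 genes, from blue (-1) to red (1), with the value written in each cell. Klf9 with Klf13 is the highest at 0.88 and Klf7 with Klf10 the lowest at -0.76.

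The genes whose pattern within groups was most like each member, among 14307 other genes with a mean of at least 1 CPM, are given as a description, since the highest of many correlations has no meaningful p. For Klf2 they were Tubb2b, a neuronal beta-tubulin (r = 0.97, rho = 0.94), Psmd6, a proteasome subunit (0.95, 0.92), and Rab5if (0.95, 0.92). For Klf4 they were Rdx, the actin linker radixin (r = 0.95, rho = 0.99), Cenpe and Cdv3. For Klf9 the nearest was Flt1, a VEGF receptor of endothelium (r = 0.95, rho = 0.95), then Ajap1 and Prdm2, and for Klf13 Phtf2 (r = 0.93), Gse1 and Cyth1. Klf10 was nearest to Psmb2 and Sem1, both of the proteasome (r = 0.96 each), and to Zfp831. Klf6 was nearest to Irs1 (r = 0.93), Gm45426 and Vps54, Klf7 to Dnhd1 (r = 0.96), Bach2 and Gm16008, Klf15 to Sh3kbp1 (r = 0.93), Zfp385a and Exosc10, and Klf16 to Wrnip1 (r = 0.95), Arf1 and Vapa. Without the 2 libraries farthest from the median of each member's centred values the r of these 27 pairs ran from 0.79 to 0.96. For Klf2, where these include WT replicate 5, r was 0.89 with Tubb2b, 0.89 with Psmd6 and 0.89 with Rab5if.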

How the data were processed

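Each library held polyadenylated RNA of 1 hippocampus, prepared with a kit that marks strand, per the labels' protocols. Build mm10 and bcl2fastq 2.17.1.14 are named in the submitters' processing notes, while the aligner, counter, annotation and strand setting were not found there. The authors deposited raw counts, whole numbers for each Ensembl gene. Symbols matched 30566 of 30681 genes. Exon lengths come from GENCODE M21 (mm10).

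Members and lists were chosen with earlier results of these data known. Groups follow the labels. filterByExpr left 16587 genes, scaled by TMM. CPM was computed here on TMM-scaled totals. edgeR 4.0.16 (quasi-likelihood F test, robust, 2-sided) was run on all genes with Benjamini-Hochberg adjustment at 0.05, in R 4.3.3. Standard errors are the fold change over the root of F. Correlations used log2 CPM with a prior count of 2, centred per group, with 2-sided exact permutation within groups. Of each list, the genes named are up to 4 of smallest p, and of each member the 3 most similar genes. Tek, Nr3c1, Prodh, L1cam, Sin3a, Sp3 and Npas4 were named after their values were seen, and the promoters of Klf2 and Klf4 were chosen likewise. Alternatives were other scaling and filters, DESeq2 1.42.0, limma-voom (limma 3.58.1), the replicate block, a sex term, male libraries and each library left out. Leaving out the 2 libraries farthest in centred values, or WT replicate 5, from correlations was chosen after seeing the data. The methods were tested on simulated data.

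No replicate pair was alike within sampling noise (smallest chi-square per degree of freedom 5.31).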

Additional observations from a re-analysis of the deposited data

Results flagged for a closer look

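Klf2 in WT replicate 5, at 5.29 CPM, stood apart from the other 4 WT libraries, of which the lowest had 10.1 CPM. The gap was 0.739 of the range of the WT group, above the critical value of 0.71 for 5 libraries (Dixon's test at 95%). Of 18 groups tested, 9 genes in 2 genotypes, this was the only one, and chance alone flags about 1 in 20. The library's total count and scaling factor were within the range of the others. The cause of its low Klf2 was not tested.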

How the results depend on the processing

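The log2 fold changes of Klf2, Klf4, Klf7, Klf10 and Klf15 were negative under each of the 21 alternatives. Those of Klf6, Klf9, Klf13 and Klf16, all within 0.03 of 0, changed sign in 10, 1, 2 and 6 of them. Klf2 ran from -0.88 to -0.65 with 1 library left out, and moved by more than its spread with a sex term (-0.37) and in the male libraries (-0.36). No gene had an adjusted p under 0.05 in edgeR's main analysis (1524 unadjusted). Such genes numbered 1 by library totals, 3 with no filter and 62 by DESeq2. With 1 library left out they numbered 0 to 14, of which 14 without WT replicate 5, 2 without WT replicate 2 and 1 without WT replicate 1. Klf2 was among the 14 and among the 62. Since it was chosen with this contrast known, nothing is read from either call. At an unadjusted p under 0.05 there were 953 genes in the male libraries. No other KLF or SP gene passed under any of the 21. The pair called by exact permutation, 1 of 36, became 0 by library totals, by Spearman's rho and in the male libraries, and 0 to 1 with 1 library left out. With the replicate number as a block, which shared only a number (correlations of same-numbered libraries -0.32 to 0.21, and 1 of 5 WT libraries nearest its own number), 0 genes passed an adjusted and 1332 an unadjusted p under 0.05, and Klf2 was at -0.77 and Klf4 at -0.40. For Klf4, with 67 to 154 reads, counting error is up to 12.2%, and the coefficient of variation between libraries is 23.4% labelled cKO and 11.9% in WT.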
